A study of Mus musculus with 10 samples.

Results

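Adult tendon fibroblasts were studied in the mouse supraspinatus tendon enthesis, the place where this shoulder tendon joins bone. The cells were chosen by measured values in the droplet library of postnatal day 56 (P56): at least 500 detected genes, at most 10% of counts in mitochondrial (mt-) genes, at least 2 UMIs (unique molecular identifiers, which count single RNA molecules) of Tnmd, and 0 UMIs of Ptprc, Cdh5, Col22a1 and S100g. This rule selected 881 of the 5131 P56 cells that passed the gene and mitochondrial limits (17.2%, exact binomial 95% interval 16.1 to 18.2), out of 13479 such cells in 3 droplet libraries. Applied to the younger libraries, the same rule found 1245 of 2952 cells at P11 (42.2%, 40.4 to 44.0) and 481 of 5396 cells at P18 (8.91%, 8.17 to 9.71). Since Tnmd set the membership at each age, these cells are called Tnmd cells, and the levels of Tnmd and of the 4 genes held at 0 are no finding.

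The 3 droplet libraries (P11, P18 and P56, 1 each) came from wild-type mice labelled C57BL/6, given as C57BL/6J in the extraction text, and the dissected entheses of each were pooled, so that no animal can be traced. After enzyme digestion at 37 celsius degrees and lysis of red blood cells, cells without Cd45 and DAPI staining were sorted, a step meant to remove leukocytes and dead cells. Even so, 18 P18 cells with at least 2 Tnmd UMIs carried the leukocyte gene Ptprc. The other 7 samples were 96-well plates of single cells from Gli1CreERT;Ai14 mice between P7 and P42 (P7, P11, P14 and P18, then P21, P28 and P42), all given tamoxifen at P5 and P7. In these mice the Gli1 promoter drives a tamoxifen-dependent Cre, and Ai14 is a red fluorescent Cre reporter, so labelled cells are those that used the Gli1 promoter around the injections, with their descendants. The wording of the plate sort can be read as keeping or as dropping red cells, and the sex and number of the animals were not given in the sources used here. The extraction text lists the plate ages without P14, but a plate is labelled P14 and was used as labelled. No untreated or other control group applies to the droplet libraries, and no library had a replicate.

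Depth and composition differed between the droplet libraries. The median number of UMIs per Tnmd cell was 6161 at P56 (range 1028 to 68479), 14391 at P11 and 10107 at P18, and the median number of detected genes was 1858, 3106 and 2551. UMIs summed to 6447794 in the adult Tnmd cells, 18965721 at P11 and 5083867 at P18. Xist, the RNA of the inactive X chromosome, was detected in 0.227% of the Tnmd cells at P56, 75.0% at P11 and 49.7% at P18. Kept cells of P56 shared 6 barcodes with P11 and 8 with P18, and 1 of these was a Tnmd cell in both libraries. Age, library, depth and mouse pool cannot be told apart in these 3 libraries, and sex, as far as Xist reflects it, differed along with them. A difference between ages is therefore given as a ratio of summed CPM (the UMIs of a gene per 1000000 UMIs of the class), with an exact Poisson 95% interval that covers counting error only, and with no test. In such sums, more expressing cells and more RNA per cell cannot be told apart, so shares of cells are given beside the headline genes.

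Tendon fibroblasts make and maintain the parallel collagen fibrils that carry load from muscle to bone. Scx and Mkx are transcription factors of the tendon lineage, Tnmd is a membrane glycoprotein of mature tendon cells, and small leucine-rich proteoglycans such as Fmod, Dcn and Kera bind collagen and govern how fibrils assemble and thicken. During growth these cells secrete much collagen I, whereas turnover of the collagen core is known to be very slow in adult tendon. Angptl7 is a secreted angiopoietin-like protein, and Thbs4 is a pentameric thrombospondin of the tendon matrix.

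The 4 genes that mark these cells lie on different chromosomes of the GRCm38 (mm10) assembly. Tnmd spans X:133851008-133865577, Angptl7 4:148495181-148500462, Fmod 1:134037254-134048280 and Thbs4 13:92751586-92794818. Because Scx is a basic helix-loop-helix factor, a class that binds the E-box (CANNTG, the same on both strands), the 250 bases before each RefSeq transcription start (GRCm38.p6) are shown 5′ to 3′ on the strand of the gene, with every E-box in capitals. The windows are chrX:133850758-133851007 on the plus strand for Tnmd, chr4:148500463-148500712 on the minus strand for Angptl7, chr1:134037004-134037253 on the plus strand for Fmod and chr13:92794819-92795068 on the minus strand for Thbs4.
Tnmd: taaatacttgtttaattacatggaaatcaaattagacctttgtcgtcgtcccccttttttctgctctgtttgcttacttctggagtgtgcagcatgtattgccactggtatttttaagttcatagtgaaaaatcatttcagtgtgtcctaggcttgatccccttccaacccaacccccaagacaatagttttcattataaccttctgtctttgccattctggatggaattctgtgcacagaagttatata
Angptl7: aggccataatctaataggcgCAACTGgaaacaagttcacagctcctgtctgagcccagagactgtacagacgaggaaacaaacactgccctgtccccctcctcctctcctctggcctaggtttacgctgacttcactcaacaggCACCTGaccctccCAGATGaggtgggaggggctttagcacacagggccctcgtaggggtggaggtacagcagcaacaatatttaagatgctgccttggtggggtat
Fmod: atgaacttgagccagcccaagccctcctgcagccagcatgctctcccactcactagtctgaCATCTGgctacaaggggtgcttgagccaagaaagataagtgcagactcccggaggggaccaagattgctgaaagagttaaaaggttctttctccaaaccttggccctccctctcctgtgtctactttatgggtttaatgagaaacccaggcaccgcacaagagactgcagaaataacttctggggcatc
Thbs4: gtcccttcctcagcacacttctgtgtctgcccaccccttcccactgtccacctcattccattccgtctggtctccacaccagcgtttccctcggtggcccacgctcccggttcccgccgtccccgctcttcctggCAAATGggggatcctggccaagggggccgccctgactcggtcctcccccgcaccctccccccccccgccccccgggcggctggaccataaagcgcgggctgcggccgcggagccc
The Tnmd window held 0 E-boxes. The Angptl7 window held 3, whose first bases lie 230, 106 and 93 bases before the start, the last of them CAGATG. The Fmod window held 1 at 189 bases (CATCTG, the reverse complement of CAGATG), and the Thbs4 window held 1 at 115 bases. Of 32817 RefSeq mouse promoter windows of this length, 66.2% held at least 1 E-box, 31.8% at least 2 and 12.2% at least 3, and 14.5% held CAGATG or CATCTG. These matches describe the letters only, and binding was not measured.

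The tendon label held for most of the selected cells. The median member carried 4 Tnmd UMIs (range 2 to 30), 14 UMIs of Angptl7, 46 of Fmod and 31 of Thbs4, and 648 of 881 cells (73.6%) had at least 1 UMI of all 3 markers that the rule did not use. A further 185 cells (21.0%) had UMIs of 2 of the 3, 39 cells (4.43%) of 1, and 9 cells (1.02%) of none. Thbs4 was missing in 14 cells (1.59%), Fmod in 59 (6.70%) and Angptl7 in 217 (24.6%), so Angptl7 was the marker that most often lacked a UMI. As background, 11.8% of the 381 P56 endothelial cells (Cdh5 of at least 2 UMIs, median depth 5838 UMIs) also carried at least 2 Tnmd UMIs, as did 3.82% of 262 mural cells (cells of the vessel wall, Rgs5 of at least 2 UMIs). At least 5 Tnmd UMIs were carried by 9.19% of these endothelial cells and 1.53% of these mural cells. Tnmd counts at and above the level of the rule were thus also found in some cells that should lack the gene.

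Cells on either side of the rule showed how gradual its border is. Of 1336 P56 cells with at least 2 Tnmd UMIs, 337 carried Col22a1, a collagen of the muscle-tendon junction (50 of them with a single UMI). The endothelial cadherin Cdh5 was carried by 123 (78 with a single UMI), S100g by 106 (34 with a single UMI) and the leukocyte gene Ptprc by 0. All these cells were removed, and a cell with several of these genes is in several of the counts. The 212 members with exactly 2 Tnmd UMIs held Angptl7 at 3376 CPM, Fmod at 5139, Thbs4 at 4012 and Col1a1 at 6105. The 429 cells just outside, with 1 Tnmd UMI, held these genes at 2483, 3363, 2936 and 4130 CPM. At the other end, the 102 members with more than 10 Tnmd UMIs held them at 5103, 8473, 6367 and 12838 CPM. The levels thus increased stepwise with the Tnmd count, and the cells just outside resembled those just inside more than they resembled the 1048 connective-tissue fibroblasts without Tnmd, which held them at 180, 337, 682 and 1781 CPM.

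Angptl7 was much higher in adult than in young Tnmd cells. Its summed level in the adult cells was 4438 CPM (4387 to 4490), against 143 CPM in the P11 cells and 397 CPM in the P18 cells, a log2 ratio of 4.96 (4.90 to 5.02) over P11 and 3.48 (3.42 to 3.55) over P18, or 31.1 and 11.2 times higher. After each cell was thinned to 2000 UMIs, which left out 12 shallower adult cells, 10 at P11 and 1 at P18, Angptl7 was detected in 10.1% of Tnmd cells at P11, 17.3% at P18 and 68.1% (64.9 to 71.2) at P56. Without thinning the shares were 17.2%, 23.3% and 75.4%. Endothelial cells of the same P56 library, which should lack the gene, gave 10.6% at the thinned depth (17.3% unthinned), far below the share of the adult Tnmd cells. The source of the endothelial UMIs was not tested.

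Thbs4 and Cilp were the other tendon genes at least 2-fold higher at P56 than at both younger ages, and they were all that passed, with Angptl7, among 12 tested members of the tendon marker list. Across all 10178 genes with at least 100 UMIs over the 3 sums, 504 (4.95%) were at least 2-fold higher than at both ages, 515 (5.06%) were at least 2-fold lower, and either applied to 1019 (10.0%). Thbs4 stood at 2181, 1514 and 5183 CPM at P11, P18 and P56 (2.38 and 3.42 times higher in the adult), and Cilp, a cartilage intermediate layer protein also laid down in tendon, at 139, 93.0 and 1431 CPM (10.3 and 15.4 times higher). The list median was a log2 ratio of 0.79 over P11 and 1.01 over P18, against 0.05 and 0.00 for all tested genes. A restriction chosen after the data were seen left out every cell with a UMI of the cartilage and bone genes Acan, Ibsp or Matn1, and kept 374 Tnmd cells at P11, 147 at P18 and 850 at P56. There 2 of 12 tendon markers were higher, because Thbs4 came within 2-fold of P18 (log2 ratio of 0.85), and Angptl7 stood at 104, 715 and 4527 CPM, with a smaller ratio over P18 (2.66). Fmod was higher at P56 (7123 CPM) than at P18 (3166) and nearer to P11 (5294), and Kera, the keratan sulfate proteoglycan keratocan, stood at 1970, 874 and 988 CPM. Comp, a thrombospondin that bridges collagen fibrils, was at 1784 CPM at P11 and about level between P18 (4680) and P56 (4388).

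The tendon transcription factors did not share the adult difference of Angptl7. Scx stood at 308, 198 and 226 CPM at P11, P18 and P56 (log2 ratio of -0.45 and 0.19), and at 2000 UMIs per cell it was detected in 35.5%, 25.0% and 31.3% of Tnmd cells. Mkx stood at 58.3, 37.8 and 40.6 CPM (log2 ratio of -0.52 and 0.10). Among 10 tested genes of this list, 1 was at least 2-fold higher at P56 (Eya2, at 11.9, 5.31 and 25.1 CPM) and 1 was lower (Egr2, at 20.6, 30.1 and 8.37 CPM). Under TMM scaling 0 were higher. The list medians were -0.36 and -0.29, so these regulators were at similar or slightly lower levels in the adult cells.

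**Figure D1:**
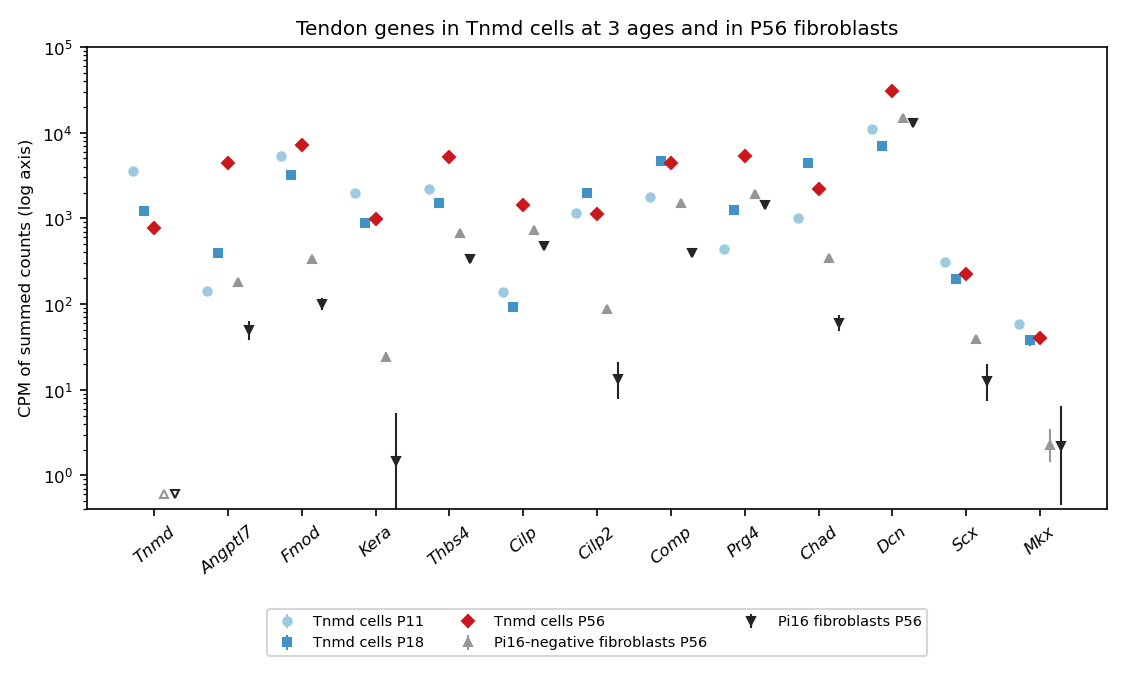
Summed level in CPM (log axis) of 13 tendon genes, with exact Poisson 95% intervals, in Tnmd cells at P11, P18 and P56 and in Pi16 and Pi16-negative fibroblasts at P56; open symbols at the bottom are 0 UMIs. Angptl7 is high in the adult Tnmd cells alone (4438 CPM, against 397 or less in the other classes), whereas Scx and Mkx are alike at the 3 ages and lower in both fibroblast classes.

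Fibrillar collagen transcripts were lower in adult than in young Tnmd cells. Col1a1, the main chain of tendon collagen, made up 8913 CPM of the adult sum, against 81550 CPM in the P11 sum and 49190 CPM in the P18 sum, which is 9.15 and 5.52 times lower in the adult. Col1a2, its partner chain, stood at 63014, 33692 and 8706 CPM (log2 ratio of -2.86 and -1.95). Of 11 tested fibrillar collagen genes 10 were at least 2-fold lower than at both ages, 0 were higher, and the list medians were -2.41 and -2.07. Col5a3 alone did not follow, at 57.2, 17.5 and 81.0 CPM. Col3a1, the collagen of young and healing tissue, was at 6831, 5286 and 1519 CPM. The fibril-nucleating chains Col5a1 (517, 420 and 173 CPM) and Col11a1 (1739, 1076 and 240 CPM) were lower as well.

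Young Tnmd cells held many more cartilage transcripts than adult ones, which bears on the collagen values. Col2a1, the cartilage collagen, was at 9.46 CPM in the adult, 6514 CPM in P11 cells and 14110 CPM in P18 cells, and 12 of 15 tested cartilage genes were at least 2-fold lower in the adult. In the cells without Acan, Ibsp or Matn1, Col1a1 stood at 36439, 46408 and 8955 CPM (log2 ratio of -2.02 and -2.37), Col1a2 at 28768, 30130 and 8746 CPM, and Col3a1 at 11025, 6695 and 1476 CPM. Of 10 tested fibrillar collagens 6 were then at least 2-fold lower, with list medians of -1.75 and -1.16, and Col1a1, Col1a2 and Col3a1 were among them, while fewer of the minor chains passed.

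Proteoglycans that coat the fibrils did not follow the collagens. Dcn, decorin, was at 30904 CPM in the adult cells, above P11 (11147 CPM) and P18 (7052 CPM), a log2 ratio of 1.47 and 2.13. It was the only one of 13 tested small leucine-rich proteoglycan genes at least 2-fold higher than at both ages, while Bgn (biglycan, at 4953, 4423 and 1817 CPM) and Epyc (epiphycan, at 9.44, 7.47 and 0 CPM) were lower, the latter at least 20.3-fold against P11 and 16.1-fold against P18. The list medians were 0.43 and 0.71, of the opposite sign to the collagens. In cells without the 3 cartilage genes Dcn had log2 ratios of 1.50 and 1.45, whereas Bgn was within 2-fold (-0.90 and -0.56).

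Most genes that process and crosslink collagen did not differ at least 2-fold in the same direction from both young ages. Among 26 tested genes 4 were at least 2-fold lower than at both ages and 0 were higher (list medians -0.76 and -0.27). The 4 were Sparc, a collagen-binding glycoprotein (39099, 47380 and 9150 CPM), and Fkbp10, P3h1 and Crtap, which act on procollagen in the endoplasmic reticulum. Crtap stood at 323, 169 and 80.2 CPM, P3h1 at 82.9, 70.8 and 26.2, and Fkbp10 at 295, 247 and 101. Without cells carrying Acan, Ibsp or Matn1, 2 of 26 were lower, with Fkbp10 among them, while Sparc (-0.96 over P11), Crtap (-0.82 over P18) and P3h1 (-0.90 over P18) came within 2-fold of 1 age. Serpinh1, the collagen chaperone, was at 2512, 1384 and 987 CPM and stayed within 2-fold of P18. The crosslinking enzyme Lox stood at 386, 128 and 284 CPM, without a common direction.

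**Figure D2:**
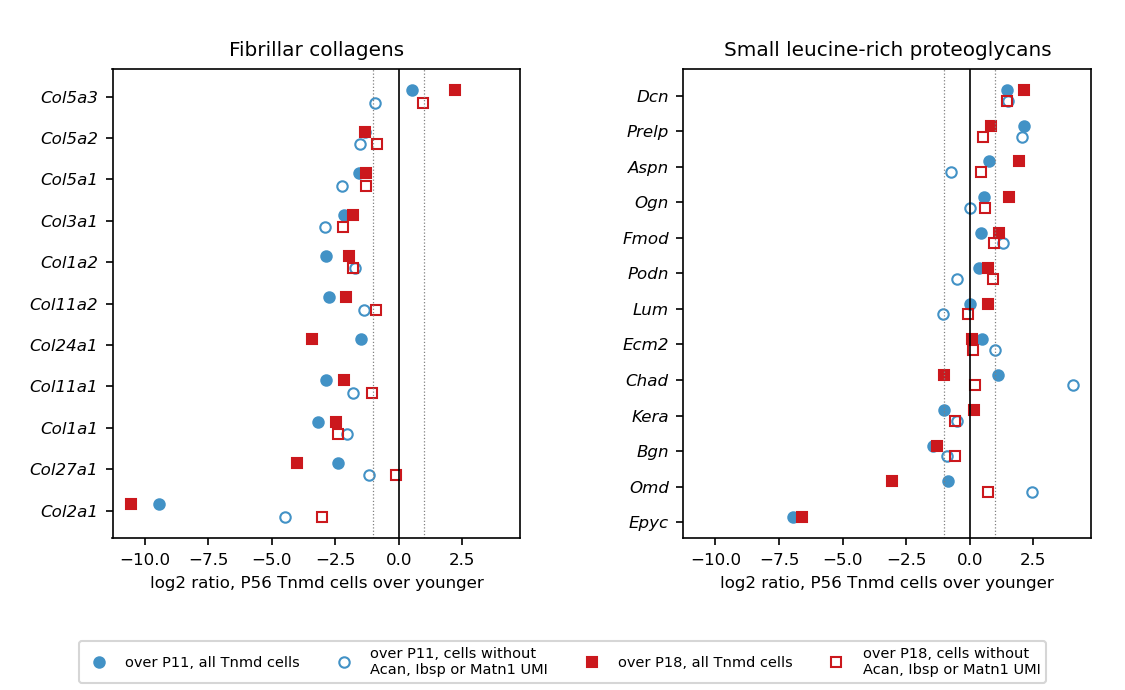
Log2 ratio of summed CPM at P56 over P11 (blue circles) and over P18 (red squares) for fibrillar collagens (left panel) and small leucine-rich proteoglycans (right panel); filled symbols are all Tnmd cells, open symbols are cells without a UMI of Acan, Ibsp or Matn1, and dotted lines mark 2-fold. Epyc, at 0 adult UMIs, is drawn with 0.5 counts added, and genes under 100 UMIs have no open symbol. Most collagens lie left of 0 and Dcn lies right of it in both sets of cells.

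Prg4 and Has1 were higher in the adult cells. Prg4, which encodes the lubricant lubricin, stood at 441, 1246 and 5298 CPM at P11, P18 and P56 (12.0 and 4.25 times higher), and at 2000 UMIs it was detected in 33.8%, 45.6% and 91.9% of Tnmd cells. In P56 endothelial cells that share was 27.1%. Without cells carrying Acan, Ibsp or Matn1, Prg4 stood at 310, 2190 and 5345 CPM, with a log2 ratio of 1.29 over P18. Has1, a hyaluronan synthase, stood at 31.7, 56.3 and 447 CPM, while Has2, another one, was at 13.0, 20.3 and 13.8 CPM. Of 8 tested sheath and synovial lining markers 4 were at least 2-fold higher than at both ages (Prg4, Has1, Hbegf and Clic5) and 0 were lower, but the 123 adult UMIs of Clic5 came from 9 cells. Prg4 was at 1433 CPM in Pi16 fibroblasts and 1901 CPM in Pi16-negative fibroblasts of the same library, 3.70 and 2.79 times below the Tnmd cells, while the lining markers Cd55 (107 against 903 and 659 CPM) and Crabp2 (36.3 against 285 and 204 CPM) were lower in the Tnmd cells.

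Chemokine, cytokine and complement genes formed the list with the most members higher in the adult: 12 of 15 tested genes were at least 2-fold higher than at both ages and 0 were lower, with list medians of 3.04 and 3.03. Complement component C3, the central protein of the complement cascade, reached 405 CPM (390 to 421, from 2614 UMIs) in the adult cells, against 3.64 CPM (69 UMIs) in P11 cells and 3.34 CPM (17 UMIs) in P18 cells, a log2 ratio of 6.79 (6.46 to 7.17) and 6.88 (6.24 to 7.70). C3 was detected in 0.729%, 0.625% and 37.9% of cells thinned to 2000 UMIs, and in 3.82% of P56 endothelial cells. C4b, another complement component, stood at 27.8, 27.7 and 352 CPM, and the complement inhibitor Serping1 (236, 195 and 1451 CPM) was higher together with the components. Before thinning, C3 had a UMI in 54.7% of members, C4b in 24.0%, Cfb in 9.08% and Serping1 in 90.2%, so the complement genes differed widely in how many adult cells held them.

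The monocyte chemokine Ccl2 stood at 43.7, 5.31 and 930 CPM at P11, P18 and P56, and Ccl7 at 22.6, 5.70 and 519 CPM. The neutrophil chemokine Cxcl1 stood at 133, 36.4 and 1093 CPM. Il6 was at 112 CPM in the adult, with 7.96 CPM in P11 cells and 0.393 CPM (2 UMIs) in P18 cells. These were unevenly spread: at 2000 UMIs per cell Ccl2 was detected in 2.27%, 0.208% and 17.4% of Tnmd cells, and Il6 in 0.567%, 0% and 7.71%. In P56 endothelial cells the Ccl2 share was 10.3% and the Il6 share 26.5%, the latter above that of the tendon cells. Of the 720 Il6 UMIs of the members, 603 lay in 1 of the subclusters described further on, in which 51.2% of cells had one. The 3 tested members that stayed within 2-fold of at least 1 age were Cxcl12, Cxcl14 and Il33.

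Metallothioneins, small proteins that bind zinc and copper, and heme oxygenase 1 followed the same order. Mt1 stood at 1091, 4928 and 19435 CPM at P11, P18 and P56, Mt2 at 382, 1511 and 10241 CPM, and Hmox1, which breaks down heme, at 31.5, 26.4 and 925 CPM (29.4 and 35.0 times higher). Mt1 and Hmox1 were higher at P56 in endothelial cells too, at 352 and 6184 CPM for Mt1 at P11 and P56 and at 59.7 and 1186 CPM for Hmox1. Without cells carrying Acan, Ibsp or Matn1, Hmox1 stood at 57.7, 15.7 and 946 CPM and Mt1 at 1309, 7912 and 19744 CPM. The difference was not limited to Tnmd cells, and the part of the library or of the mice in it was not tested. Of 12 tested glucocorticoid-responsive genes 5 were at least 2-fold higher and 0 lower (Mt1, Mt2, Cebpd, Zbtb16 and Errfi1), while Tsc22d3, a direct target of the glucocorticoid receptor, was at 429, 1874 and 631 CPM. Immediate-early genes, which respond within minutes to handling, were not higher as a list: 1 of 18 passed upward (Socs3) and 1 downward (Fos, at 3137, 3286 and 1351 CPM).

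The chemokine and complement list was less clear-cut without the cells carrying Acan, Ibsp or Matn1, where 9 of 14 tested members were at least 2-fold higher (medians 1.93 and 1.80). In those cells C3 stood at 11.9, 10.3 and 414 CPM, and Ccl2 at 159, 9.57 and 933 CPM. In the Tnmd cells without a UMI of Xist (311 at P11, 242 at P18 and 879 at P56), 11 of 14 members were higher, 9 of 10 fibrillar collagens were lower, and Angptl7 had log2 ratios of 5.25 and 3.43. The direction of these groups was therefore the same in the cells of either restriction.

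**Figure D3:**
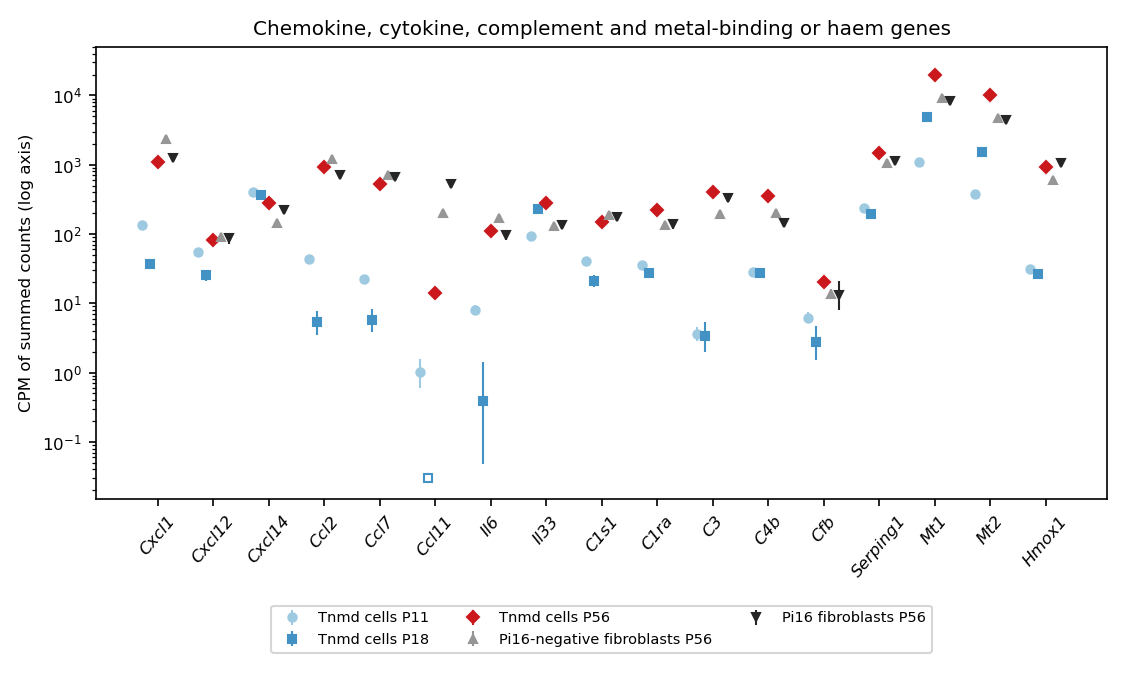
Summed level in CPM (log axis), with exact Poisson 95% intervals, of 14 chemokine, cytokine and complement genes and of Mt1, Mt2 and Hmox1 in Tnmd cells at P11, P18 and P56 and in Pi16 and Pi16-negative fibroblasts at P56; open symbols at the bottom are 0 UMIs. For most genes the 3 adult classes lie close together and above the young Tnmd cells; Ccl11 is low in the adult Tnmd cells (14.1 CPM) and high in both fibroblast classes.

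Growth-associated transcripts were low or missing in the adult cells. H19, an imprinted fetal RNA, gave 4614 UMIs at P11 (243 CPM), 301 at P18 (59.2 CPM) and 1 at P56 (0.155 CPM). Of 12 tested imprinted growth genes 7 were at least 2-fold lower than at both ages and 0 were higher, with a median of -2.03 against P11 and of -1.20 against P18 once Igf2, at 0 UMIs in the adult, was set to the bound that 3 counts give. Without cells carrying Acan, Ibsp or Matn1, 4 of 10 were lower (median of -0.94 against P18), and Cdkn1c (-0.39) and Meg3 (-0.92) came within 2-fold of P18. Over all Tnmd cells Dlk1 stood at 157, 283 and 7.60 CPM, Mest at 88.5, 58.4 and 6.67 CPM, and the growth inhibitor Cdkn1c at 437, 563 and 118 CPM. These belong to a set of imprinted genes known to be switched down after birth in many tissues.

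Proliferation transcripts and Gli1 were sparse at every age. Of 16 tested cell-cycle genes 6 were lower and 0 higher, with Mki67 at 12.5, 7.87 and 3.26 CPM and Top2a at 25.7, 21.6 and 5.27 CPM. These calls rested on few cells: 0 of 15 were lower once the cells with the highest doublet scores were removed, 0 of 8 in cells without Xist, and 1 of 7 without cells carrying Acan, Ibsp or Matn1. Gli1, the transcription factor and target of Hedgehog signalling whose promoter labels the plate mice, gave 68, 50 and 11 UMIs (3.59, 9.84 and 1.71 CPM), and the Hedgehog receptor Ptch1 stood at 14.9, 62.7 and 7.60 CPM. The Hedgehog list as a whole summed to 1096, 946 and 727 CPM. Of its 9 tested genes 1 (Gli1) was at least 2-fold lower than at both ages and 0 were higher, and in cells without Xist 0 of 8 were lower. Without cells carrying Acan, Ibsp or Matn1, 1 of 6 was higher and 1 lower.

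At the stricter limit of 4-fold against both ages, 132 genes (1.30%) were higher, 172 (1.69%) were lower, and either applied to 304 (2.99%) of the 10178. Genes high in the ranking included Galnt15, a glycosyltransferase (0.316, 3.54 and 90.7 CPM), Coch, the matrix protein cochlin (3 UMIs at P11, 0 at P18 and 171 at P56), and Wisp2, a member of the CCN family (3.27, 2.75 and 83.7 CPM). Coch was at least 44.9-fold higher than at P18, but its adult UMIs came from 18 cells, against 299 cells for Galnt15 and 242 for Wisp2. Myh11, the myosin of smooth muscle, ranked high as well (1.21, 0.197 and 62.3 CPM), but its 402 adult UMIs came from 26 cells. Many of the lowest were cartilage and bone genes: Col9a1 stood at 189, 480 and 0 CPM, at least 407-fold and 1032-fold lower, Ibsp at 385, 4020 and 4.19 CPM, and Matn1 at 42.6, 31.5 and 0 CPM. Xist was also among the lowest, with a log2 ratio of -9.90 or below against each age. Car9, a carbonic anhydrase known as a hypoxia target, stood at 57.8, 5.70 and 0 CPM and was at least 12.3-fold lower than at P18.

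Within the P56 library the Tnmd cells were set against 172 Pi16 fibroblasts (Pi16 of at least 2 UMIs) and 1048 Pi16-negative fibroblasts (Pdgfra of at least 1 and Dcn of at least 2 UMIs), both with 0 UMIs of Tnmd. Pi16, Pdgfra, Dcn and Tnmd set these classes and are no finding, and since the cells of 1 library are not replicates no test was made. Of 9000 tested genes 250 (2.78%) were at least 2-fold higher in Tnmd cells than in both classes, 450 (5.00%) were lower, and either applied to 700 (7.78%). At 4-fold, 95 (1.06%) were higher, 108 (1.20%) lower, and 203 (2.26%) either. The median gene had a log2 ratio of -0.27 against Pi16 and -0.22 against Pi16-negative fibroblasts, so a gene at equal CPM lay slightly above the typical one. Scaling by TMM or by the median of ratios turned the 4-fold split to 112 higher and 77 lower, or 114 and 76, so neither direction can be called the more common.

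Tendon matrix genes separated these classes widely. Angptl7 stood at 4438 CPM in Tnmd cells, 49.4 in Pi16 and 180 in Pi16-negative fibroblasts, 89.2 and 24.6 times higher, and Fmod at 7123, 100 and 337 CPM. Of 12 tested tendon markers 9 were at least 2-fold higher than in both classes and 0 were lower (medians 4.29 and 3.29). Kera (988, 1.47 and 24.2 CPM), Cilp2 (1120, 13.3 and 88.5 CPM) and Chad, the cell-binding matrix protein chondroadherin (2182, 60.4 and 341 CPM), had the same order. Of the tendon transcription factors 4 of 9 were higher and 0 lower. Scx stood at 226, 12.5 and 39.2 CPM, and Mkx at 40.6, 2.21 (3 UMIs) and 2.28 CPM. At 2000 UMIs per cell, Scx was detected in 31.3% of Tnmd cells, 6.54% of Pi16-negative fibroblasts and 9.12% of endothelial cells. The Scx share of these fibroblasts was thus no higher than that of endothelial cells, and the source of either was not tested.

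Although the adult cells held far less collagen I than the young ones, they held more than the fibroblasts beside them. Col1a1 stood at 8913 CPM in Tnmd cells, 1156 in Pi16 and 1781 in Pi16-negative fibroblasts, 7.71 and 5.01 times higher, and Col11a1 at 240, 6.63 and 18.5 CPM. Col3a1 (1519, 1996 and 3081 CPM) and Col5a1 (173, 252 and 266 CPM) lay the other way. Of 10 tested fibrillar collagens 4 were at least 2-fold higher and 0 lower, and the list medians differed in sign (1.48 against Pi16 with Col2a1 at its bound, -0.33 against Pi16-negative fibroblasts). Lox stood at 284, 27.3 and 35.9 CPM. The 4 higher processing genes of 26 were Lox, Loxl4, P3h2 and Adamts3, all enzymes, while the enhancer of procollagen cleavage Pcolce2 was lower (706 against 1460 CPM in each class). Under TMM scaling 6 were higher and 0 lower.

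Some genes of loose connective tissue were lower in the sum of the Tnmd cells. Ly6a, which encodes the surface protein Sca-1, stood at 912, 2444 and 2178 CPM in Tnmd, Pi16 and Pi16-negative cells, Cd34 at 230, 967 and 617, and Cd248 at 37.1, 291 and 165. Of 11 tested connective-tissue fibroblast markers 4 were at least 2-fold lower and 0 higher. Ly6a and Cd34 were uneven among the members. In subclusters 5 and 6, described further on, Ly6a stood at 1625 and 1955 CPM and Cd34 at 344 and 492, above every other subcluster. Microfibril genes split: Mfap4 stood at 406 CPM in Tnmd cells against 21.4 and 6.41, while Mfap5 (382 against 2503 and 1299 CPM), Fbn1 (267 against 1428 and 941 CPM) and Efemp1 (4.96 against 139 and 54.5 CPM) were lower. Sets of proteins that build elastic fibres thus differed by member and not as a whole, with 3 of 16 higher and 5 lower.

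Most of the tested chemokine, cytokine and complement genes, 13 of 15, lay within 2-fold of at least 1 of the adult fibroblast classes. Of the other two, 1 was at least 2-fold higher in Tnmd cells than in both fibroblast classes (Il33, at 279, 136 and 132 CPM) and 1 was lower (Ccl11, the eosinophil chemokine eotaxin, at 14.1, 531 and 203 CPM). C3 stood at 405, 332 and 196 CPM, Ccl2 at 930, 719 and 1197 CPM, and Hmox1 at 925, 1073 and 592 CPM. Mt1 was higher in Tnmd cells (19435, 8220 and 9064 CPM) and Mt3, a metallothionein best known in brain, far more so (220, 2.95 and 7.24 CPM). Ucma, a secreted Gla-rich protein of cartilage, stood at 44.7, 0 and 0.827 CPM, at least 20.2-fold higher than in Pi16 fibroblasts.

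The genes that varied most among the members included some held by few of them and others held by nearly all. At 2000 UMIs per cell, over 4099 genes in 869 cells, the variance of the counts divided by their mean had a median of 1.05, close to the value of counting noise. It was 27.7 for Acta2 (smooth muscle actin), 25.6 for the calcification inhibitor Mgp, 24.3 for Ccl2, 23.7 for Mt1 and 23.7 for Saa1. Saa1 had a UMI in 0.806% of the thinned cells and Ccl2 in 17.4%, but Mgp in 91.3% and Mt1 in 99.7%. Col1a1 (17.1), Angptl7 (17.0), Dcn (16.2) and Col1a2 (16.0) were also among the 15 most variable genes, whereas Fmod had 9.87 and Thbs4 6.29. Angptl7 reached 95 UMIs in a cell of 2000, so its spread was not only that of presence and absence.

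The 217 members without an Angptl7 UMI were compared with the 664 that had one, as a description of cells split on that gene. Fmod stood at 2464 CPM in cells without and 8674 CPM in cells with Angptl7, Chad at 426 and 2767, and Col1a1 at 4297 and 10450. Mt3 stood at 11.8 and 289 CPM. Genes of the reverse order were Myoc, a secreted olfactomedin protein (2121 and 813 CPM), Ly6a (1484 and 721 CPM), Col3a1 (2396 and 1227 CPM), Ccl2 (1710 and 670 CPM) and Ptx3, a pentraxin of innate immunity (390 and 69.9 CPM). Tnmd (751 and 783 CPM) and Thbs4 (4409 and 5440 CPM) differed little between these cells.

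Clustering of the 881 members gave 7 groups, which were left as numbers because the clustering used these same genes. Subcluster 1 (242 cells, 27.5%) was led by Slc7a11, Mt3, Gpha2 and Ucma and held Angptl7 at 10626 CPM, Fmod at 13522 and Col1a1 at 18438, with Ly6a at 43.0 CPM. Subcluster 2 (154 cells) held Angptl7 at 4994 CPM and Ly6a at 882, and was led by Saa2, Coch and Mstn. Few of its cells held the first of these, with a UMI of Saa2 in 2.60% and of Coch in 6.49%. Subcluster 3 (130 cells, median of 4064 UMIs) held Scx at 448 CPM, Fmod at 11353 and Fos at 480. Subclusters 1 and 3 thus held the most Fmod, Chad and collagen I.

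Subcluster 4 (129 cells) had the highest Thbs4 (8496 CPM) and Tnmd (1528 CPM), with Tnc (tenascin C) at 355 CPM, Timp1 at 1238 and Postn at 330, while Clec3b (tetranectin) was at 109 CPM against 1100 or more in subclusters 1, 2, 3, 5 and 6. Subcluster 5 (121 cells) was led by Ptx3, Sfrp1, Cxcl2 and Il6 and held Ccl2 at 2543 CPM, C4b at 1362, C3 at 850 and Angptl7 at 577. Subcluster 6 (95 cells) held Cd55 at 371 CPM, Crabp2 at 167, Ly6a at 1955, Col3a1 at 3396 and Angptl7 at 355. The complement and chemokine UMIs of the members were therefore uneven, with C4b at 83.2 CPM or less in subclusters 1 to 4.

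Subcluster 7 held 10 cells (1.14%) with Acta2 at 17099 CPM, Myh11 at 3476 and Notch3 at 300, all genes of vessel-wall muscle, and Tnmd at 290 CPM. Markers of other cell types were found in the members to different extents. Endothelial markers were found in at most 1.59% of cells, the leukocyte genes Tyrobp, Cd52, Laptm5 and Coro1a had 0 UMIs, Lyz2 was in 2.27%, and the muscle actin Acta1 in 6.92%. Of the Schwann and nerve sheath list Sox10 had 0 UMIs, while Slc2a1, a glucose transporter, had the highest share of that list at 11.2% of cells. Of the adipocyte list Adipoq and Plin1 had 0 UMIs, while Fabp4 was in 5.11% and Lpl, lipoprotein lipase, in 37.1%. The mural list was led by Cspg4 in 30.1% and Acta2, and Rgs5 was in 2.16%. The part of these cells or transcripts in the results was not tested. Acta2 was in 42.1% of members but at most 185 CPM in subclusters 1 to 6.

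**Figure D4:**
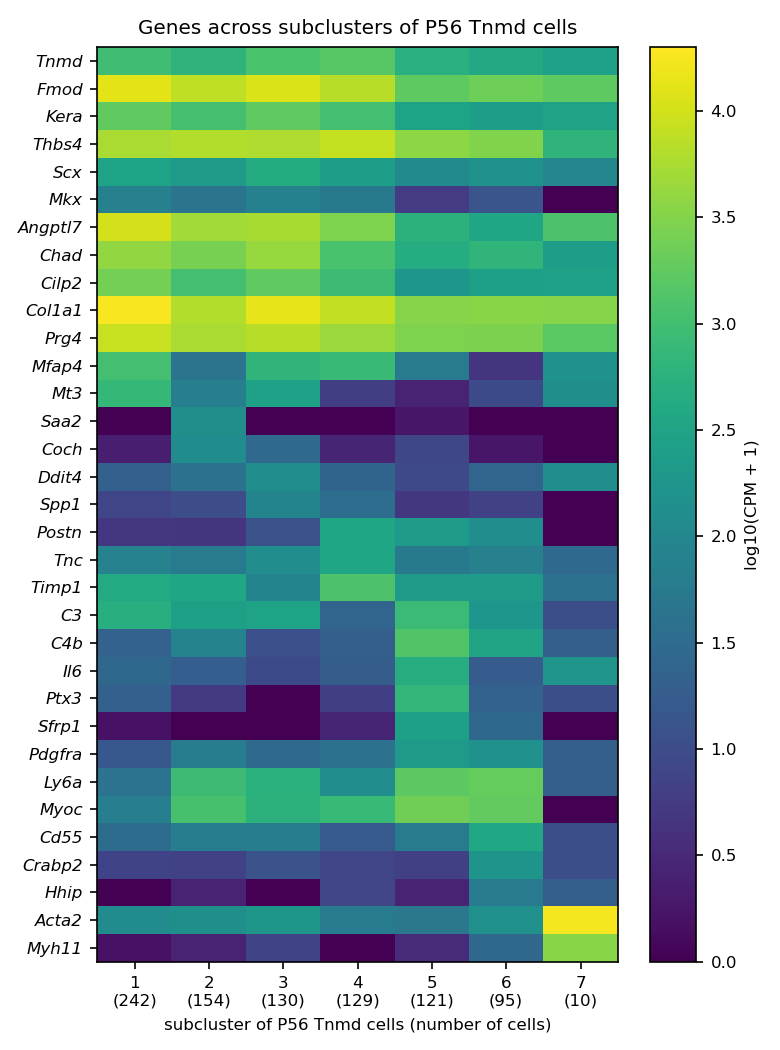
Heat map of log10(CPM + 1) for 33 genes (rows) in the 7 subclusters of the 881 adult Tnmd cells (columns), each a sum over its cells. Angptl7, Fmod and Col1a1 are brightest in subcluster 1, Ptx3, Il6 and C4b in subcluster 5, and Myh11 and Acta2 in subcluster 7.

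The plates give a second set of ages, up to P42, in which each plate is 1 sample. Wells with at least 2 Tnmd counts under the same rule numbered 69 of 96 at P7, 62 of 95 at P11, 39 of 94 at P14, 37 of 94 at P18, 21 of 93 at P21, 24 of 89 at P28 and 15 of 86 at P42, from 71.9% to 17.4% of kept wells. Their summed counts ran from 345215 at P7 to 57136 at P42, so the late plates were the shallowest. The plates were deposited in different layouts and their Xist counts ranged from 0 to 374, and these were not separable from the mice used. A slope on log2 age across the 7 plates called 0 of 1719 tested genes (0%) with edgeR's quasi-likelihood test at an adjusted p under 0.05, with 201 genes at an unadjusted p under 0.05, while DESeq2 called 109 (42 with a positive and 67 with a negative slope). A slope is given as log2 units per doubling of age with its standard error.

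Angptl7 counts in the plates were 0, 8, 11, 102, 1, 21 and 27 from P7 to P42, that is 0, 33.2, 52.3, 677, 14.3, 348 and 473 CPM. The 3 highest were P18, P28 and P42, and P21 had 1 count. The slope was 2.37 ± 0.85 (SE), with an adjusted p of 0.361 in edgeR and 0.0405 in DESeq2. Prg4 stood at 310, 593, 656, 1247, 2525, 1986 and 1890 CPM, low in the first 3 plates and highest at P21 to P42, with a slope of 1.19 ± 0.28 (adjusted p of 0.331 in edgeR and 1.07e-04 in DESeq2). Dcn stood at 1411, 3964, 2811, 7291, 5896, 6405 and 6948 CPM, with a slope of 0.86 ± 0.26 (edgeR adjusted p = 0.361). The plates from P18 on were all above the earlier ones for Dcn and Prg4, although no slope passed the edgeR threshold.

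Other genes that were high in the adult droplet cells differed in the plates, and none of them passed that threshold. The slope was 0.54 ± 0.24 for Thbs4 (edgeR adjusted p = 0.405), 1.20 ± 0.46 for Cilp (0.361) and 1.12 ± 0.37 for Serping1 (0.361). Mt1 stood at 307, 2272, 880, 4160, 4203, 3608 and 700 CPM, low at both ends, with a slope of 0.78 ± 0.63 (0.645). Ccl2, too sparse to test, stood at 23.2, 116, 23.8, 13.3, 775, 0 and 35.0 CPM, and Galnt15 had counts at P18 alone. H19 stood at 666, 1111, 666, 179, 316, 66.2 and 210 CPM with a slope of -1.11 ± 0.38 (0.361). Col1a1 gave no such slope by P42. It stood at 42069, 30559, 37333, 24759, 18032, 21233 and 35529 CPM, with no order by age and a slope of -0.16 ± 0.22 (edgeR adjusted p = 0.806). Its partner chain Col1a2 stood at 59186, 55586, 63045, 46008, 27657, 38544 and 40010 CPM, higher in each plate up to P18 than in those from P21 on. C3 gave 0, 0, 0, 1, 2, 1 and 6 counts and was too sparse to test. Scx counts were 369, 4, 11, 65, 78, 3 and 8, which differed more between neighbouring ages than between early and late ones.

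**Figure D5:**
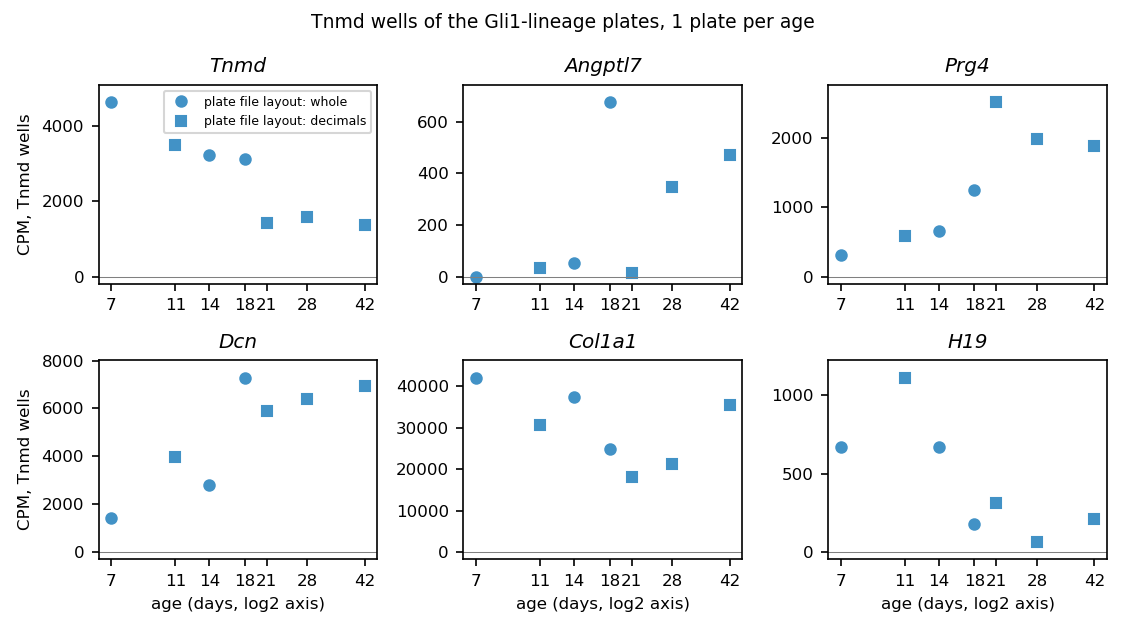
Summed CPM of Tnmd, Angptl7, Prg4, Dcn, Col1a1 and H19 in the Tnmd wells of each of the 7 plates against age in days (log2 axis), 1 point per plate; circles and squares are the whole-number and decimal file layouts. Dcn and Prg4 are higher from P18 on than before, whereas Col1a1 at P42 (35529 CPM) lies within its earlier range.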

How the data were processed

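Single-cell RNA was measured in 3 droplet libraries and 7 plates of the supraspinatus enthesis. The deposited droplet files hold raw UMI counts for 31053 genes, written by software versions 3.1.0 (P11 and P18) and 3.0.2 (P56) per the file headers. The plate files hold deposited counts per gene and well, all whole numbers, in 2 layouts (with and without decimals); whether they were collapsed by UMI was not given in the sources used here. The build was mm10 per the submitters' processing notes, and the aligner was not given in the sources used here.

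The members and the 33 gene lists (423 genes) were chosen with earlier results of these data known. Genes are named if they are in a list, among the 15 highest or 15 lowest of a droplet comparison beyond 4-fold by the smaller of their 2 log2 ratios, or among the 15 most variable; unnamed models, ribosomal, mitochondrial and haemoglobin genes were counted but not named. Other genes (subcluster leaders, genes of the split on Angptl7) were named after their values were seen. The fibroblast classes had 0 UMIs of Tnmd and of the 4 excluded genes.

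Counts were summed per class and scaled to 1000000 UMIs of the class. A gene was tested with at least 100 UMIs over the sums of a comparison, 0.5 counts were added to each sum for log2 ratios, and a call needed at least 4-fold (2-fold for lists) against both references. A fold against 0 counts used a floor of 3 counts over the class. Intervals are exact Poisson or exact binomial and cover counting error only. Shares of cells used each cell thinned to 2000 UMIs. Subclusters came from 1500 variable genes, 20 components, 15 neighbours and Leiden resolution 0.6 (scanpy 1.11.5, leidenalg 0.10.2). Scrublet's automatic threshold marked 1, 1 and 3 cells and so did not work; doublets were kept, and removal of the highest scores (47 of the 881 members) was an alternative. In the plates, counts of Tnmd wells were summed per plate and fitted with edgeR 4.0.16 (quasi-likelihood, TMM) on log2 age, with Benjamini-Hochberg adjustment over 1719 genes, and DESeq2 1.42.0 as an alternative. On simulated data with 200 genes changed by a slope of 1.5 among these 1719, the edgeR fit recovered 153 (76.5%), with 10 false among 163 calls. The simulated scatter followed a fitted trend without gene-specific scatter, so this share may not hold for the real plates. With 1 plate per age, p-values measure the scatter of plates around a line. Promoters were read from RefSeq windows of GRCm38.p6, and gene positions from GENCODE M21. The values of 1 gene of the chemokine, cytokine and complement list, which its counts include, are not reported here.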

Additional observations from a re-analysis of the deposited data

How the results depend on the processing

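No paired analysis was possible because every group of this study is a single sample, droplet library or plate. Over 240 gene-level results, 2766 alternative values moved by less than their counting interval and 974 moved by more. A change of sign was counted only for ratios of at least 4-fold in the main setting, and 4 of those values changed sign. Smaller ratios that changed sign were not counted apart. Those 4 were Dmkn against Pi16 fibroblasts after thinning (0.45), Dkk1 against P11 without cells carrying Acan, Ibsp or Matn1 (1.10), and Myh11 without the 26 members that carried it (-3.92 against P11 and -1.85 against P18). The change of Myh11 was fixed in advance, because that setting left no adult UMI of the gene, and nothing is concluded from it. The 4-fold counts moved with the minimum of UMIs: 207 higher and 312 lower with age, and 150 and 166 against fibroblasts, at 30 UMIs; 61 and 72, and 39 and 34, at 500; and 458 and 488, and 223 and 542, at 1. At 2-fold they were 504 and 515, and 250 and 450. With age, 88 genes were lower in cells without Xist, and 44 without Acan, Ibsp or Matn1. Against fibroblasts, 59 were higher with the cell limits set to 1000 genes and 5% mitochondrial counts, 45 were lower with Tnmd of at least 1 UMI, and 163 were lower by mean CPM over cells. The cause of these shifts was not tested. In the plates, edgeR called 0 of 1719 genes in the main setting and 2 with the RLE scaling (Tnni2 and Tnxb). It called 1 with a layout term and 1 with linear age, Tnni2 in each. Without a filter 154 of 18840 were called, and in wells without cartilage genes 1 of 282 (Comp, with a positive slope). Leaving out each plate gave 0 to 1 calls, while DESeq2 with all plates called 109. The plate sums of 57136 to 345215 counts left C3, Ccl2 and Hmox1 under the count filter.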

Other observations

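Some growth factor genes differed between the adult Tnmd cells and the fibroblasts beside them. Igf1, a growth factor for tendon collagen synthesis, stood at 256 CPM in adult Tnmd cells, 56.0 in Pi16 and 81.5 in Pi16-negative fibroblasts, and the binding protein Igfbp5 at 750, 3942 and 2501 CPM. Of 21 tested TGF-beta and BMP genes 2 were at least 2-fold higher than in both classes (Tgfb3 and Chrdl1) and 5 were lower (Tgfb1, Inhba, Gdf10, Bmp4 and Nog), against 3 and 3 under TMM scaling. Tgfb3 stood at 57.2, 22.9 and 28.2 CPM and Tgfb1 at 30.2, 95.8 and 81.0 CPM, so these ligands had opposite orders. Of 10 tested Wnt genes 2 were higher, 2 lower and 6 neither. Outside that count, Wnt2, among the lowest-ranked genes, stood at 5.58, 59.0 and 76.7 CPM and Pgf, a relative of VEGF, at 6.51, 170 and 61.5 CPM.

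With age, of 13 tested Wnt genes 3 were at least 2-fold higher in the adult (Wnt11, Sfrp1 and Sfrp2) and 2 were lower (Sfrp5 and Frzb). Without cells carrying Acan, Ibsp or Matn1, however, only 1 of 11 was higher and 0 lower. Of 17 tested matrix proteases and inhibitors 3 were higher (Mmp3, Adamts4 and Timp1) and 0 lower. Timp1 stood at 136, 98.7 and 371 CPM at P11, P18 and P56. Postn, a matrix protein of growing connective tissue, stood at 946, 109 and 96.9 CPM, and Igfbp6 at 1894, 3142 and 6698 CPM. Of 17 tested circadian genes 1 was higher and 0 lower: Nr1d1, a clock repressor, stood at 34.2, 85.8 and 182 CPM, against 2 of 15 higher and 2 lower without cells carrying Acan, Ibsp or Matn1, and the hour of dissection was not given in the sources used here. None of 11 tested mechanosensing genes passed 2-fold against both ages in either direction, and Piezo1, a stretch-gated channel, stood at 52.0, 51.1 and 69.0 CPM.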
